A study of Mus musculus with 78 samples.

Results

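The kinesin and tubulin genes were followed through the early cleavage divisions of the mouse embryo. Members were all mouse protein-coding genes of the RefSeq annotation of GRCm38.p6 whose symbol starts with Kif and a digit, Kifc, Tuba, Tubb or Tubg and a digit, or Tubgcp. The annotation holds 64 of them, 42 kinesin genes and 22 tubulin or gamma tubulin complex genes. Of these, 59 were among the 16956 genes listed in the 4-cell or the 8-cell table, and 53 were in both. Kif5a, Kif6, Kif26a and Tuba8 were in the 4-cell table only, Kif7 and Tubb1 in the 8-cell table only, and Kif1a, Kif2b, Kif12, Kif28 and Tubb4a in neither.

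The libraries are Smart-seq2 cDNA of single blastomeres from Rainbow embryos, in which a lineage is marked by a recombined fluorescent gene that is read in the RNA-seq data. Embryos carried 1 copy of Gt(ROSA)26Sortm1(CAG-Brainbow2.1) with the suffix Cle/J and 1 copy of Tg(CAG-cre/Esr1*)5Amc/J, so both stages share the cassette and the inducible Cre, and both were given 4-hydroxytamoxifen for 2 h at the 2-cell stage and then cultured in vitro. The promoter of both transgenes is the ubiquitous CAG promoter, and no embryo without transgenes or without tamoxifen is among the samples. The 4-cell table has 24 columns, equal in number to the blastomeres of 6 embryos placed in lineage A (12) or B (12), and the 8-cell table has 26 columns, equal in number to the blastomeres of 4 embryos placed in lineage A (13) or B (13). No column name matches a sample label, so no blastomere has an embryo or lineage here. Each stage was treated as 1 sample, and no difference below carries a test. Stage and the separate preparation of the tables cannot be told apart.

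Values are FPKM, fragments per kilobase of transcript and per mega (M) of fragments. They are relative to each library's own total, so the amount of RNA in a blastomere was not measured. The denominator behind the FPKM values, estimated from the smallest values of each library, was 6.86 to 16.9 M fragments at the 4-cell and 2.33 to 21.7 M at the 8-cell stage. For Kif22, an FPKM of 1 stood for 14.2 to 34.8 fragments at the 4-cell and 4.82 to 44.8 at the 8-cell stage. A value of 0 allows up to 3 fragments, which for Tuba1a is an FPKM of 0.112 to 0.275 at the 4-cell and 0.0868 to 0.808 at the 8-cell stage, for counting error only. Between 3009 and 8276 genes were above an FPKM of 1 in a 4-cell and between 3548 and 8078 in an 8-cell blastomere. In 3 blastomeres of each stage the number was under 5000. Stage differences of members whose call or direction changes without these are given both ways, and partner genes with all blastomeres only. At the 8-cell stage the adjacent columns S53 to S58 had 3548 to 5391 such genes, and every other column at least 5884. Columns S53, S54 and S56 of this run stay in when those under 5000 are left out. The embryo markers Zp3 (zona pellucida) and Pou5f1 (pluripotency factor) had medians of 83.2 and 41.5 at the 4-cell and 45.6 and 110 at the 8-cell stage. Of the other 4 embryo markers, Gdf9 had medians of 4.39 and 0, Bmp15 of 0.164 and 0 and Zscan4d of 0 at both stages, and Oog1 was in neither table. Of 8 cumulus cell markers, 5 were listed in neither table, and Amh, Has2 and Vim had medians of 0 at both stages and reached at most 5.77.

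Kinesins are motor proteins that walk along microtubules or take them apart at their ends. Mitotic kinesins build the spindle, align chromosomes and complete cytokinesis, and transport kinesins carry vesicles, organelles and RNA through the cytoplasm. Microtubules are polymers of alpha and beta tubulin, each encoded by several isotype genes, and grow from gamma tubulin complexes. Early mouse blastomeres divide with spindles that lack centrioles, and they start from transcripts and proteins stored in the oocyte.

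A gene was called expressed in a stage when its median FPKM over the blastomeres was above 1. At the 4-cell stage 32 of 57 listed members were expressed, and 32 of 55 at the 8-cell stage, where 47.1% and 43.1% of all listed protein-coding genes were. The mitotic kinesins stood highest in this count. Of the 13 listed, 12 were expressed in 4-cell and 13 in 8-cell blastomeres. Of the transport kinesins, 6 of 16 and 6 of 15 were expressed, and of the tubulins and gamma tubulin complex genes 12 of 20 at each stage. Of the other kinesins, 2 of 8 and 1 of 7 were. At a threshold of 5 in place of 1, the expressed transport kinesins were Kif3c, Kif5b and Kifc3 at the 4-cell stage. At the 8-cell stage they were Kif5b, Kif16b and Kifc3. Summed over a list, the mitotic kinesins had 599 to 1231 FPKM in the 4-cell blastomeres (median 911) and 286 to 930 in the 8-cell blastomeres (median 624). The summed transport kinesins had 47.7 to 207 (median 70.6) and 16.7 to 141 (median 84.1). In the blastomeres with at least 5000 genes they had 48.7 to 111 and 46.9 to 141. The mitotic sum exceeded the transport sum in every blastomere, by 5.46 to 21.8 times at the 4-cell stage (median 10.96) and by 3.79 to 17.3 times at the 8-cell stage (median 7.20). The highest ratio of each stage and the lowest of the 4-cell stage were in blastomeres under 5000 genes.

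The stage difference is the median of log2(FPKM + 1) over the 8-cell blastomeres minus that over the 4-cell blastomeres, and a gene was called at a difference of 1 or more in size. Of the 53 members in both tables, 2 were called higher and 8 lower at the 8-cell stage. Among all 12714 protein-coding genes in both tables, 5.22% were called higher and 10% lower, and the members' shares of 3.77% and 15.1% are read as near that background. With genes expressed in at least 1 stage only, 2 of 34 members were called higher and 8 lower, where the background was 9.55% and 18.3%. The range over 4-cell blastomeres overlapped the range over 8-cell blastomeres for every member in both tables, as it did for all 12714 genes, a background of 0%.

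**Figure D1:**
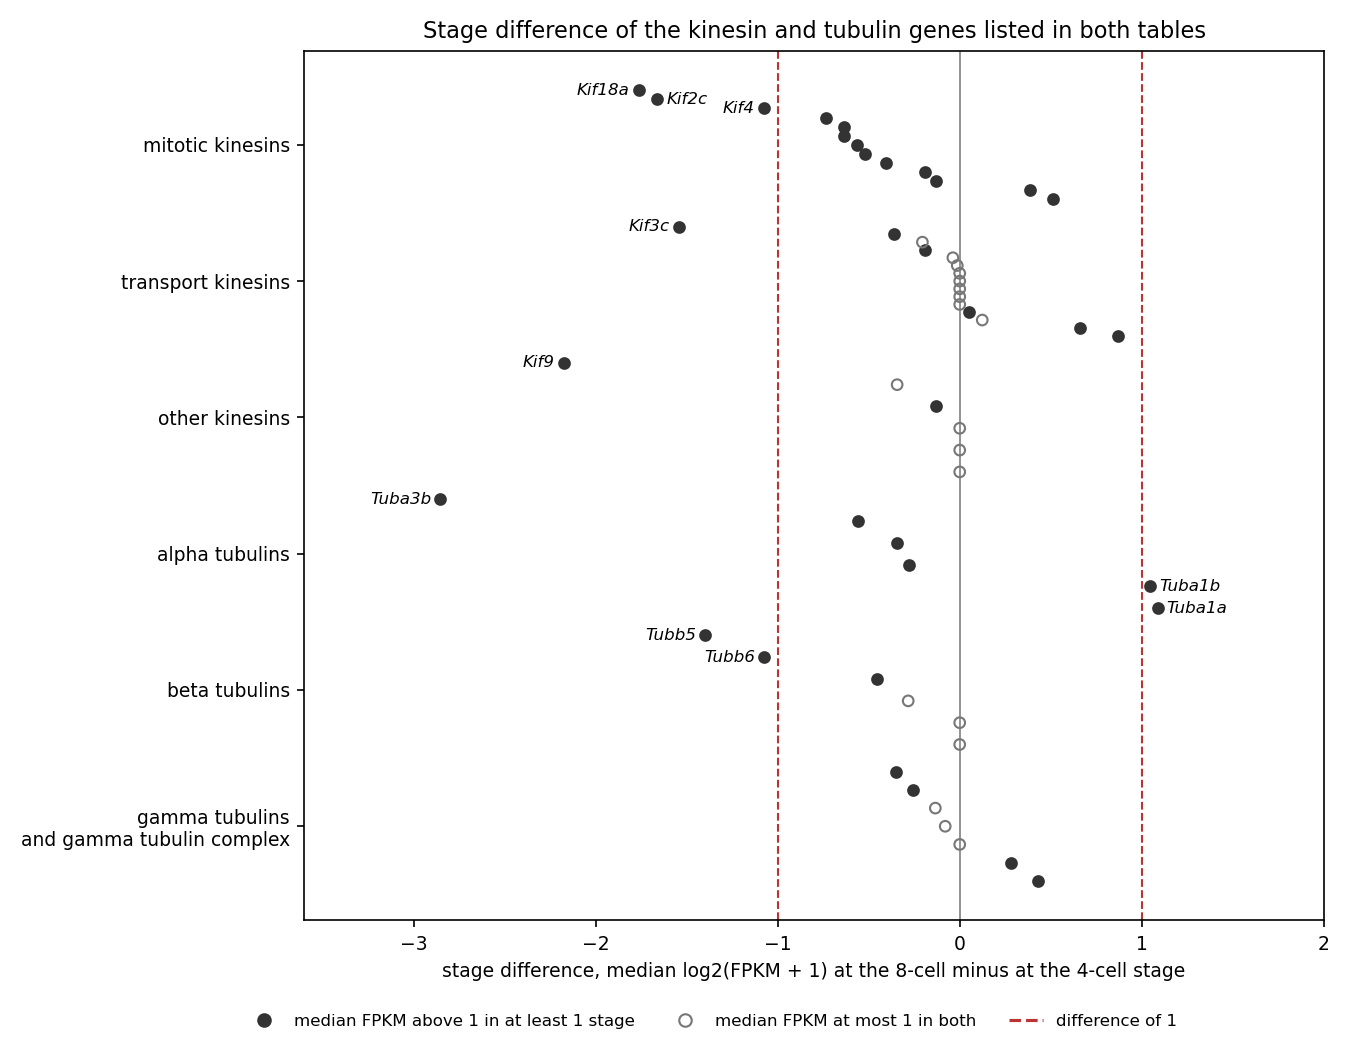
Stage difference of the 53 kinesin and tubulin genes in both tables, in log2(FPKM + 1) units, by list, with 1 point per gene. Filled points are genes with a median FPKM above 1 in at least 1 stage, open points are the rest, dashed lines mark a difference of 1, and the 10 genes past these lines are named, from Tuba3b at -2.85 to Tuba1a at 1.09.

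Most mitotic kinesins had a lower median at the 8-cell stage. The median of their stage differences was -0.57, where that of all expressed protein-coding genes was -0.11, and 11 of 13 lay below 0, where 55.6% of the expressed genes did. Without the blastomeres under 5000 genes, 10 of 13 did, with a median of -0.54, against 56.3% and a median of -0.12. Of the 13, 3 were called lower and 0 higher, a share near the 18.3% of expressed genes called lower. The 3 are Kif18a, Kif2c and Kif4. The spread between blastomeres is wide for most of these genes, and none of the differences was tested.

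Kif22, a chromokinesin that pushes chromosome arms towards the spindle equator, was the most abundant kinesin at both stages. It had 117 to 549 FPKM in the 4-cell blastomeres (median 367) and 108 to 520 in the 8-cell blastomeres (median 248). No blastomere of either stage was without it, and the ranges overlapped over most of their width. It was the highest mitotic kinesin in 22 of 24 4-cell and in 26 of 26 8-cell blastomeres, with a median share of 44.0% and 43.0% of the list's summed FPKM. Its stage difference was -0.57, and 17 of the 26 8-cell blastomeres lay below the lower quartile of the 4-cell values.

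Kif20a, which brings the chromosomal passenger complex to the central spindle, varied least between 8-cell blastomeres among the mitotic kinesins. It ran from 43.9 to 206 FPKM at the 4-cell stage (median 112) and from 46.6 to 152 at the 8-cell stage (median 98.3), a difference of -0.19. Kif23, the centralspindlin motor of the spindle midzone, had 24.4 to 200 FPKM with a median of 84.7, and 0 to 135 with a median of 77.1, a difference of -0.13. The 2 8-cell blastomeres in which Kif23 was at 0 were both among the 3 under 5000 genes. Without the blastomeres under 5000 genes it had 18.7 to 135 at the 8-cell stage and a difference of 0.08, so its direction is not settled, and it was also above 0 under TPM (0.06) and size factors (0.08). Another cytokinesis motor, Kif20b, had 20.6 to 118 FPKM (median 53.9) at the 4-cell and 0 to 71.7 (median 34.3) at the 8-cell stage, where the 23 blastomeres with at least 5000 genes had 9.23 to 71.7. Its difference was -0.64.

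Kif2c, which takes apart microtubule ends at centromeres, had 30.6 to 168 FPKM in the 4-cell blastomeres with a median of 91.1. At the 8-cell stage it had 0 to 75.5 with a median of 28.1. All 26 8-cell values lay below the 4-cell median, all 24 4-cell values lay above the 8-cell median, and the ranges still overlapped. The stage difference was -1.66, and the ratio of the 4-cell to the 8-cell median was 3.24. Without the blastomeres under 5000 genes it was -1.63.

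Kif18a, which dampens the movements of chromosomes at the metaphase plate, had 5.55 to 141 FPKM at the 4-cell stage (median 70.1) and 0.127 to 139 at the 8-cell stage (median 19.9). Of the 26 8-cell blastomeres 25 were below the 4-cell median, and 1 came close to the top of the 4-cell range. The difference was -1.76, and -1.74 without the blastomeres of few genes. Kif4, a chromokinesin of chromosome arms and midzone, had 0 to 65.4 FPKM (median 17.7) and 0 to 51.1 (median 7.84). Its call is not stable. The difference of -1.08 became -0.88 without the blastomeres under 5000 genes, went below 1 in size also with means in place of medians and without the columns headed NA, and was -0.95 on leaving out any of 12 single 4-cell blastomeres.

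Kif11, the motor that keeps spindle poles apart, had 0.0469 to 275 FPKM (median 53.2) at the 4-cell and 0 to 80.4 (median 31.5) at the 8-cell stage. The lowest and the highest of the 4-cell values were both in blastomeres under 5000 genes. In the other 21 it had 20.7 to 92.1. Kif18b, which shortens astral microtubules, had medians of 11.7 and 8.64. Kif14, needed late in cytokinesis, had medians of 3.13 and 1.66. Kif15, which can stand in for Kif11, had medians of 4.95 and 7.50, and was at 0 in 7 of 24 4-cell and 1 of 26 8-cell blastomeres. With all blastomeres, the differences of Kif15 and Kifc5b lay above 0, with 0.51 and 0.39, that of Kifc5b running from 0.18 to 0.60 on leaving out single blastomeres.

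Kifc1 focuses spindle poles, and Kifc5b is its close copy elsewhere on chromosome 17. The median of Kifc1 was 5.11 FPKM in 4-cell and 3.26 in 8-cell blastomeres, and that of Kifc5b was 0.828 and 1.42. Both were above 1 in 9 of 24 4-cell and 10 of 26 8-cell blastomeres. Since 24.1% of the 100-base windows in the exons of Kifc1 also occur letter for letter in Kifc5b, and only reads with a unique position were counted, both values are uncertain. The same test found no shared window for the other mitotic kinesins. It compared only the members and 10 pseudogenes named for these families, so copies elsewhere in the genome would not be found.

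**Figure D2:**
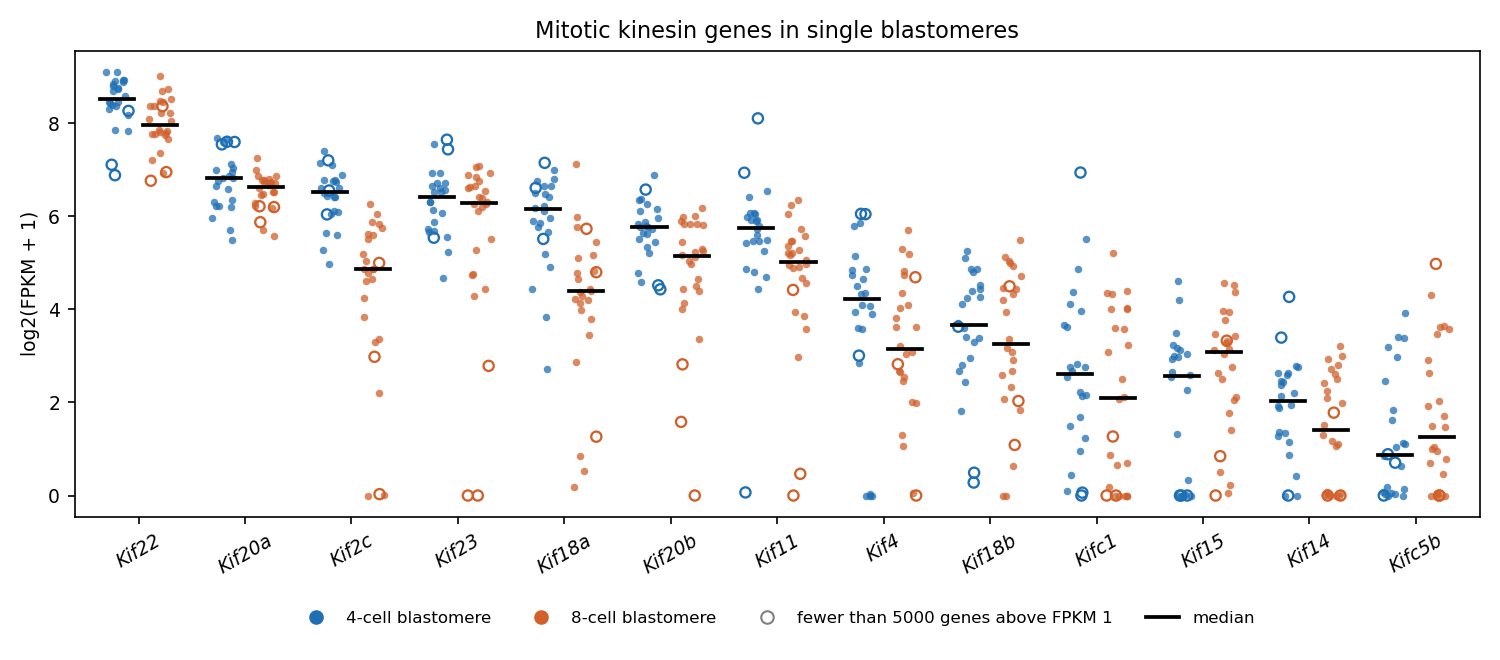
Level of the 13 expressed mitotic kinesin genes in log2(FPKM + 1), with 1 point for each of 24 4-cell (blue) and 26 8-cell (orange) blastomeres and a bar at the median. Open circles are the blastomeres with fewer than 5000 genes above an FPKM of 1. Kif22 and Kif20a form narrow bands at both stages, and Kif2c falls from a narrow band to a wide one.

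The promoters of the mitotic kinesins were read for 2 short motifs known from genes that are switched on late in the cell cycle, the CHR element (TTTGAA) and the CCAAT box (CCAAT), on both strands. Overlapping matches were each counted. RefSeq promoters of GRCm38.p6, 250 bases before to 50 bases after the gene start, were given for 51 of 64 members. Kif20a has no entry. The CHR letters were found in 11 of 13 mitotic kinesin promoters, and in at least 1 promoter of 18.5% of 17492 protein-coding genes and 14.5% of 5727 expressed ones. Within 60 bases before to 50 bases after the start, 9 of 13 held them, against 5.14% of all genes. Of the other lists, 1 of 11 transport kinesins, 2 of 9 other kinesins, 1 of 7 alpha tubulins, 1 of 6 beta tubulins and 0 of 5 gamma tubulin and complex genes held the letters anywhere in the window. The CCAAT letters were in 9 of 13 mitotic kinesin promoters and in those of 42.3% of all genes, and also in 4 of 7 alpha tubulins, 4 of 6 beta tubulins, 4 of 9 other kinesins, 3 of 11 transport kinesins and 0 of 5 gamma tubulin and complex genes. In the narrower window around the start, 8 of 13 mitotic kinesins held them, against 18.5% of all genes. Kif2b and Kif18a had no CHR letters, and those of Kif2c and Kif14 lay further upstream. So among the 3 mitotic kinesins called lower, only Kif4 held the letters near its start. A match is a description of the letters, and binding was not measured. The windows of 30 bases below, from the coding strand, are those of all 9 mitotic kinesins with the letters near the start, and every CHR match on either strand is in capitals.
Kif22, chr7:127042420-127042449, minus strand: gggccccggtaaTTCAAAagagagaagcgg
Kif23, chr9:61946780-61946809, minus strand: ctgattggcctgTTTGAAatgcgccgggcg
Kif20b, chr19:34922353-34922382, plus strand: gagccgccattgTTTGAATTTGAAaaccgg
Kif11, chr19:37376351-37376380, plus strand: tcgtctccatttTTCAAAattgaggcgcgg
Kif15, chr9:122951050-122951079, plus strand: tggggcgccaaaTTCAAAtctgcggccatc
Kif4, chrX:100626072-100626101, plus strand: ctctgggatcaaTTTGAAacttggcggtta
Kif18b, chr11:102925104-102925133, minus strand: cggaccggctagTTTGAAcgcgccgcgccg
Kifc1, chr17:33890615-33890644, minus strand: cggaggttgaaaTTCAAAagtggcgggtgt
Kifc5b, chr17:26917108-26917137, plus strand: cggaggttgaaaTTCAAAagtgactggtgt

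The transport kinesins went both ways, with 3 of the 6 expressed ones below 0 and 3 above. Their median difference was -0.07, and 0.06 under TPM and 0.02 under size factors, where the median of all expressed genes was -0.11, -0.06 and -0.05. Of the 15 in both tables, 1 was called lower and 0 higher, against backgrounds of 10% and 5.22%. Kif5b, the ubiquitous heavy chain of conventional kinesin, led the list, with 16.02 to 100 FPKM at the 4-cell (median 32.3) and 1.56 to 67.3 at the 8-cell stage (median 33.5). Without the blastomeres under 5000 genes it had 16.02 to 52.9 and 19.1 to 67.3. It was above 1 in all 50 blastomeres, and its difference was 0.05. Its neuronal relatives Kif5a and Kif5c had medians of at most 0.15.

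Kif3c, which pairs with Kif3a in a heteromeric motor, was the transport kinesin called lower. It had 0 to 51.2 FPKM at the 4-cell (median 13.2) and 0 to 22.1 at the 8-cell stage (median 3.86). Of the 26 8-cell blastomeres 22 lay below the 4-cell median, and the ranges overlapped. The difference was -1.54, and -1.27 without the blastomeres under 5000 genes. Kif3a, its partner, had medians of 2.81 and 2.37, a difference of -0.19, and of 0.04 without the columns headed NA. Kif3b, the other partner of Kif3a, had a median of 0 at both stages and was above 1 in 3 of 24 and 2 of 26 blastomeres.

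Kifc3, a motor that walks towards microtubule minus ends and acts at cell junctions, had 0 to 19.2 FPKM (median 6.45) at the 4-cell and 0 to 57.7 (median 12.7) at the 8-cell stage. The difference was 0.87, just under the threshold, and 1.46 without the blastomeres under 5000 genes. Its median share of the transport kinesin sum was 9.71% in 4-cell and 20.3% in 8-cell blastomeres, and it was the highest of the list in 0 of 24 and 6 of 26 blastomeres. Kif16b, a motor of early endosomes, had medians of 4.84 and 8.24, and Kif1b, which carries mitochondria and vesicles, 4.18 and 3.04. The other 9 members of the list in both tables had a median FPKM under 1 at each stage, and their highest single value was 23.3, for Kifc2.

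Of the kinesins in neither list, Kif2a and Kif9 are named after their values were seen. Kif2a, a depolymerase of spindle poles and of neurons, had medians of 5.94 and 5.35. Kif9, a motor of cilia and flagella, had 0 to 21.5 FPKM at the 4-cell stage (median 3.51) and 0 to 8.97 at the 8-cell stage, where it was at 0 in 18 of 26 blastomeres. Its difference was -2.17, and no fold is given because the 8-cell median is 0. At the 4-cell stage 9 of 24 blastomeres were also at 0, so the ranges overlapped. The rest of this list, such as Kif26b and Kif27, had medians of at most 0.27.

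The tubulin FPKM came mostly from few isotypes, and these did not all move together. Of the 19 tubulin and gamma tubulin complex genes in both tables, 2 were called higher and 3 lower, where 5.22% and 10% of all genes in both tables and 9.55% and 18.3% of expressed genes were, so the counts are near the background. The median difference of the 13 expressed ones was -0.34, against -0.11 for all expressed genes. The calls lie in the alpha and beta lists, with 2 higher and 1 lower of 6 alpha genes and 0 higher and 2 lower of 6 beta genes. None of the 7 gamma tubulin and complex genes was called.

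Tubb4b, a widely expressed beta tubulin, was the highest beta tubulin in 23 of 24 4-cell and in all 26 8-cell blastomeres. It had 0.0647 to 411 FPKM at the 4-cell stage (median 289) and 121 to 444 at the 8-cell stage (median 211). The lowest 4-cell value belonged to the blastomere with the fewest genes, the next was 138, and the ranges overlapped. Its difference was -0.45, and 0.02 with means in place of medians. Its median share of the beta tubulin sum was 57.99% and 67.6%. Of its 100-base exon windows 28.2% occur elsewhere in the family, mostly in the pseudogene Tubb4b-ps1, so its level and share are uncertain. It was the highest of all tubulin and gamma tubulin complex genes in 19 of 24 and 23 of 26 blastomeres.

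Tubb5, the other widely expressed beta tubulin, had 0 to 250 FPKM in the 4-cell blastomeres with a median of 131. At the 8-cell stage it had 1.94 to 262 with a median of 49.3. It was below the 4-cell median in 22 of 26 8-cell blastomeres, although the highest value of all was at the 8-cell stage. The difference was -1.40, and -1.45 without the blastomeres of few genes. With means in place of medians it was -0.61 and not called. Tubb6 had 0 to 118 FPKM (median 38.8) and 0 to 110 (median 17.8), a difference of -1.08, which was -0.41 and not called without the columns headed NA. In the blastomeres with at least 5000 genes it had 1.23 to 117 and 0 to 58.1. Tubb2a, Tubb2b and Tubb3, known from neurons, and Tubb1, of platelets, had medians of at most 0.28. Of these, Tubb2a was above 1 in 10 of 24 and 11 of 26 blastomeres and reached 19.4. Its level is uncertain, since 36.0% of its windows and 31.7% of those of Tubb2b are shared.

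The summed beta tubulin FPKM was 118 to 686 at the 4-cell (median 448) and 204 to 594 at the 8-cell stage (median 305). The summed alpha tubulin FPKM was 0.0499 to 545 (median 233) and 74.7 to 540 (median 215). The beta sum was thus lower at the 8-cell stage by its median, while the medians of the alpha sums lay close together and their ranges were wide. The median ratio of beta to alpha in a blastomere was 2.06 and 1.37. It ran from 0.938 to 3803 at the 4-cell stage, the highest in the blastomere with an alpha sum of 0.0499, and from 0.619 to 4.83 at the 8-cell stage. Windows shared with another member or a family pseudogene made up 58.7% of Tuba1b and 53.6% of Tuba1c. They made up 28.2% of Tubb4b and 0% of Tubb5 and Tubb6. Only uniquely aligned reads were counted, so the sums and their ratio are uncertain as transcript amounts. The part of shared sequence in the ratio was not tested.

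Tuba1c was the leading alpha tubulin, in 16 of 24 4-cell and 19 of 26 8-cell blastomeres. It had 0 to 280 FPKM at the 4-cell (median 114) and 0.866 to 216 at the 8-cell stage (median 94.3), a difference of -0.28, and of 0.04 with means. It was at 0 in the 2 4-cell blastomeres with the fewest genes. In the 21 4-cell blastomeres with at least 5000 genes it had 22.8 to 280.

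Tuba1b, a ubiquitous alpha tubulin, was called higher. It had 0 to 98.0 FPKM at the 4-cell (median 27.7) and 0.612 to 184 at the 8-cell stage (median 58.3). Of the 26 8-cell blastomeres 21 lay above the 4-cell median, and the ranges overlapped. The difference was 1.05, and 0.81 without the blastomeres under 5000 genes, where it is no longer called. Its median share of the alpha sum was 12.2% in 4-cell and 22.9% in 8-cell blastomeres.

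Tuba1a, best known from neurons, had 0 to 50.04 FPKM (median 0.754) and 0 to 31.5 (median 2.76). It was above 1 in 11 of 24 and 15 of 26 blastomeres, so both medians lie close to the level where the gene is found or missed. The difference of 1.09 fell below 1 on leaving out any of 25 single blastomeres, was 0.40 without those under 5000 genes, and was below 1 also with means and without the columns headed NA.

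Tuba1a, Tuba1b and Tuba1c lie together on chromosome 15. Of the 100-base windows in their exons, 58.7% of Tuba1b, 53.6% of Tuba1c and 43.9% of Tuba1a occur also in another member or a family pseudogene. Fragments from these stretches have no unique position unless the other read of the pair gives one, so the levels and alpha shares of each are uncertain. Across blastomeres with at least 5000 genes, Spearman's rho of Tuba1b with Tuba1c was 0.55 over 21 4-cell and 0.77 over 23 8-cell blastomeres. These points share libraries, embryos and exon sequence, and the rho is a description.

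Tuba3a and Tuba3b encode the alpha tubulin known from testis, and lie on chromosome 6. Tuba3a had 0 to 120 FPKM (median 22.4) and 0 to 156 (median 14.97). Tuba3b had 0 to 112 (median 11.9) and 0 to 159 (median 0.781). Both genes were above 1 in some blastomeres and near 0 in others at either stage. At the 8-cell stage 6 blastomeres had both above 1, 11 had Tuba3a alone, 6 had Tuba3b alone and 3 had neither. At the 4-cell stage the numbers were 15, 6, 1 and 2. The difference of Tuba3b was -2.85, and -1.71 without the blastomeres under 5000 genes. With means it was -0.73 and not called. Of the 100-base windows of Tuba3a, 11.98% occur in another member or a family pseudogene.

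Tuba4a, whose product lacks the terminal tyrosine of other alpha tubulins, had 0 to 80.2 FPKM (median 20.9) and 0 to 70.4 (median 17.04). It was at 0 in 2 of 24 4-cell and 9 of 26 8-cell blastomeres. All 3 8-cell blastomeres under 5000 genes were among the 9. The difference of -0.34 turned to 0.40 without the blastomeres under 5000 genes, ran from -0.79 to 0.10 on leaving out single blastomeres, and was -1.23 without the columns headed NA, so its direction is not settled.

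**Figure D3:**
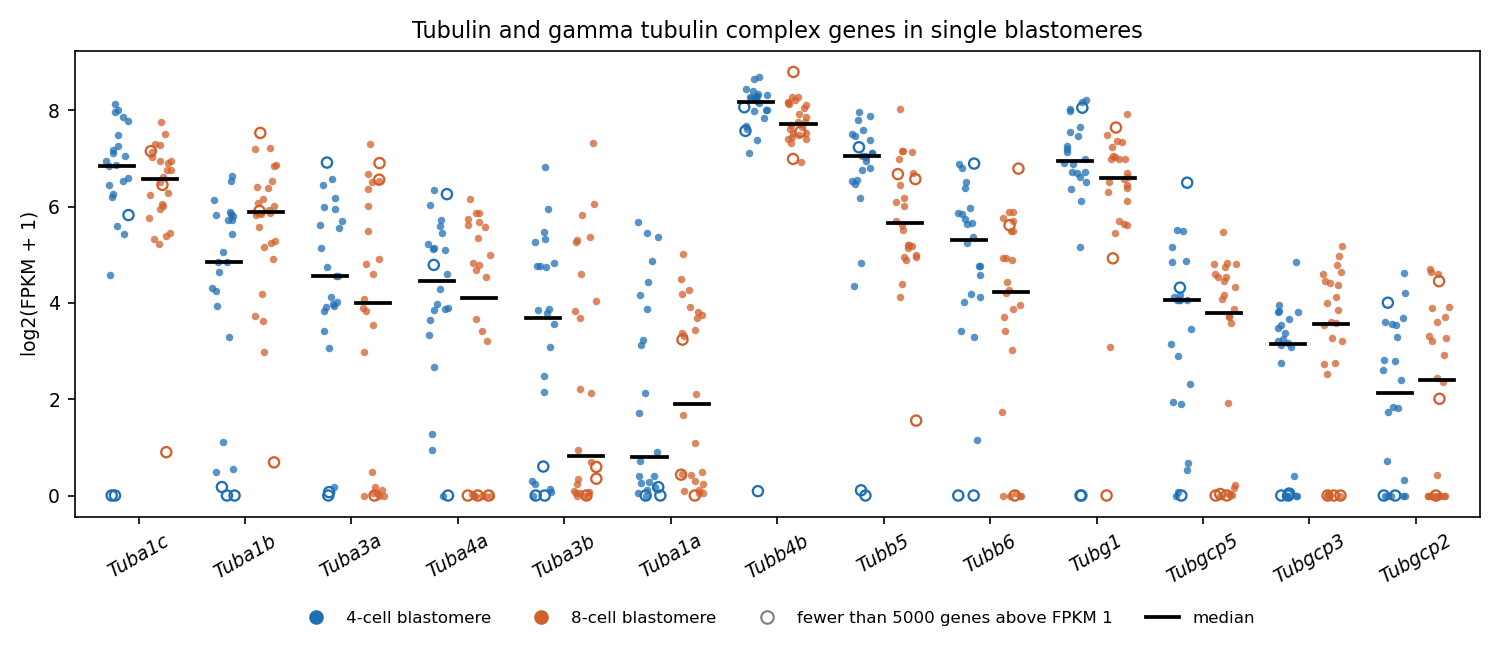
Level of the 13 expressed tubulin and gamma tubulin complex genes in log2(FPKM + 1), drawn as in the plot of mitotic kinesins, with blue for 4-cell and orange for 8-cell blastomeres, bars at the median and open circles for blastomeres under 5000 genes. Tubb4b forms a narrow band with 1 open circle near 0, and Tuba3a, Tuba3b, Tuba4a and Tuba1a split into blastomeres near 0 and blastomeres above.

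**Figure D4:**
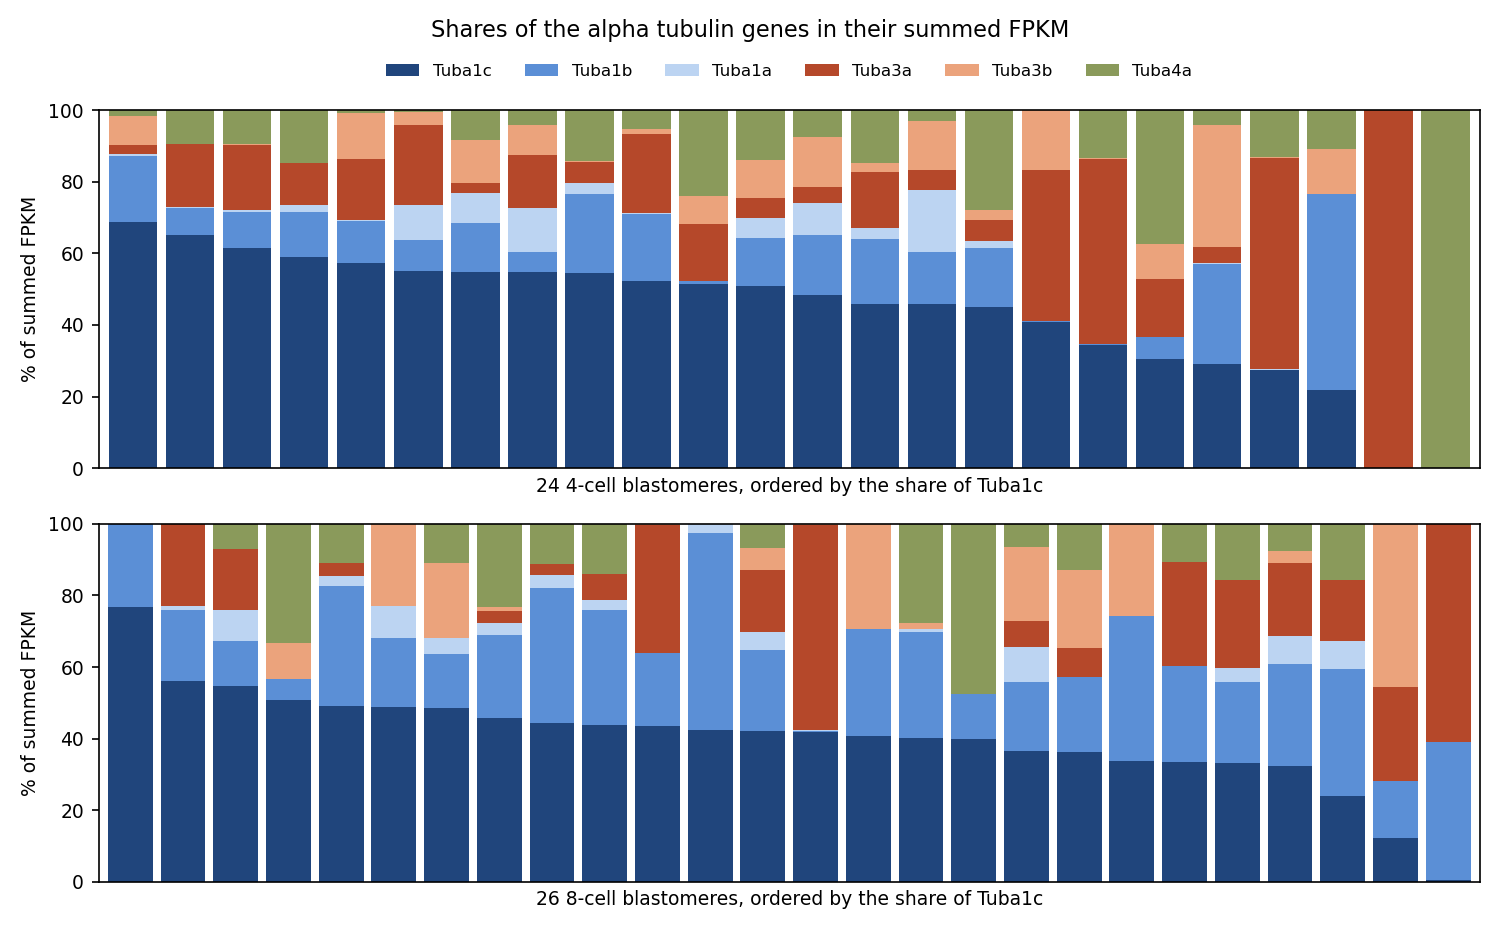
Share of each alpha tubulin gene in the summed alpha tubulin FPKM of a blastomere, in percent, with 1 bar per blastomere, 4-cell above and 8-cell below, ordered by Tuba1c. Tuba1c leads in 16 of 24 and 19 of 26 bars. The 4-cell bars made of a single gene are the 2 blastomeres with the fewest genes, and the all-Tuba3a bar stands for a sum of 0.0499 FPKM.

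Gamma tubulin and its complex showed no call. Tubg1, the main gamma tubulin, had 0 to 298 FPKM at the 4-cell (median 123) and 0 to 243 at the 8-cell stage (median 95.7), and exceeded all alpha and beta tubulins in 2 blastomeres of each stage. Tubg2 had a median of 0 at both stages. Tubgcp2 and Tubgcp3, the subunits that bind gamma tubulin in the small complex, had medians of 3.43 and 7.81 at the 4-cell and 4.28 and 10.8 at the 8-cell stage. The difference of Tubgcp2 was 0.28, and 0.03 without the blastomeres under 5000 genes. Tubgcp5, of the larger ring complex, had 15.7 and 12.96, a difference of -0.26, and of 0.02 without the blastomeres under 5000 genes. Tubgcp4 and Tubgcp6 had medians of at most 0.10.

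The spread between blastomeres is given as the SD of log2(FPKM + 1), called wide at 1 or more, among genes with a median FPKM above 1. At the 4-cell stage 26 of 32 members were wide, where 81.6% of the protein-coding genes were, and at the 8-cell stage 28 of 32, where 74.9% were. By list, 7 of 12 mitotic kinesins and 12 of 12 tubulins and complex genes were wide at the 4-cell, and 11 of 13 and 11 of 12 at the 8-cell stage. Wide spread was less frequent at higher levels, and among genes with a median above 20 the counts were 10 of 16 (background 65.3%) and 8 of 12 (background 52.8%).

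The members with an SD under 1 at the 8-cell stage were Kif20a, Tubb4b, Kif22 and Kif5b. The SD of Kif20a was 0.64 in 4-cell and 0.39 in 8-cell blastomeres. Only 2% of the 650 protein-coding genes within 0.5 of its 8-cell level on the log2 scale had a lower SD. Kif22 had an SD of 0.57 and 0.58, and Kif5b of 0.61 and 0.88. Without the blastomeres under 5000 genes these were 0.36 and 0.51 for Kif22 and 0.51 and 0.46 for Kif5b. Tubb4b had an SD of 1.68 at the 4-cell stage, and 0.40 without the blastomeres under 5000 genes, and 0.43 at the 8-cell stage. Kif2c went the other way between stages, from 0.61 to 1.85, and Kif23 from 0.74 to 1.93. Without the blastomeres under 5000 genes these 8-cell values were 1.71 and 0.86.

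At the other end were the alpha tubulins with an all-or-none look. Tuba3a at the 8-cell stage had an SD of 2.77, and 99.6% of the 1119 genes of like level had a lower one. Tuba4a had 2.58, with 98.7% of 1124 genes below it. Leaving out the blastomeres under 5000 genes left both above 2, at 2.69 and 2.47. At the 4-cell stage the same step took Tuba1c from 2.12 to 0.92, Tubb5 from 2.11 to 0.90 and Tubg1 from 2.13 to 0.75. It left 8 of 12 tubulins and 4 of 12 mitotic kinesins wide at the 4-cell stage, where 62.2% of protein-coding genes were, and 9 of 12 and 8 of 13 at the 8-cell stage, where 64.5% were.

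Mitotic kinesins and tubulins were counted separately in the blastomeres with few genes. In the 3 4-cell blastomeres under 5000 genes, 8 to 10 of the 12 mitotic kinesins expressed at that stage were above an FPKM of 1, and 1 to 8 of the 12 tubulins and complex genes. In the other 21 the numbers were 9 to 12 and 8 to 12. At the 8-cell stage they were 8 of 13 and 5 to 8 of 12 in the 3 blastomeres, and 8 to 13 and 6 to 12 in the other 23. Of all listed genes, 3009 to 4939 were above 1 in the 3 4-cell blastomeres and 5336 to 8276 in the other 21. In 8-cell blastomeres the numbers were 3548 to 4963 and 5106 to 8078. The share of all expressed genes above 1 in these blastomeres was not counted, so the member counts have no background. Kif20a in the 3 4-cell blastomeres was at 186 to 193 FPKM, above the median of 107 in the other 21. In the 3 8-cell blastomeres it was at 57.7 to 73.4, below the median of 101 in the other 23. The summed mitotic kinesins were 800 to 1132 in the 3 4-cell blastomeres, within the range of the others. In the 3 8-cell blastomeres they were 286, 288 and 442, where the other 23 had 356 to 930. The part of the low gene number in these values was not tested.

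**Figure D5:**
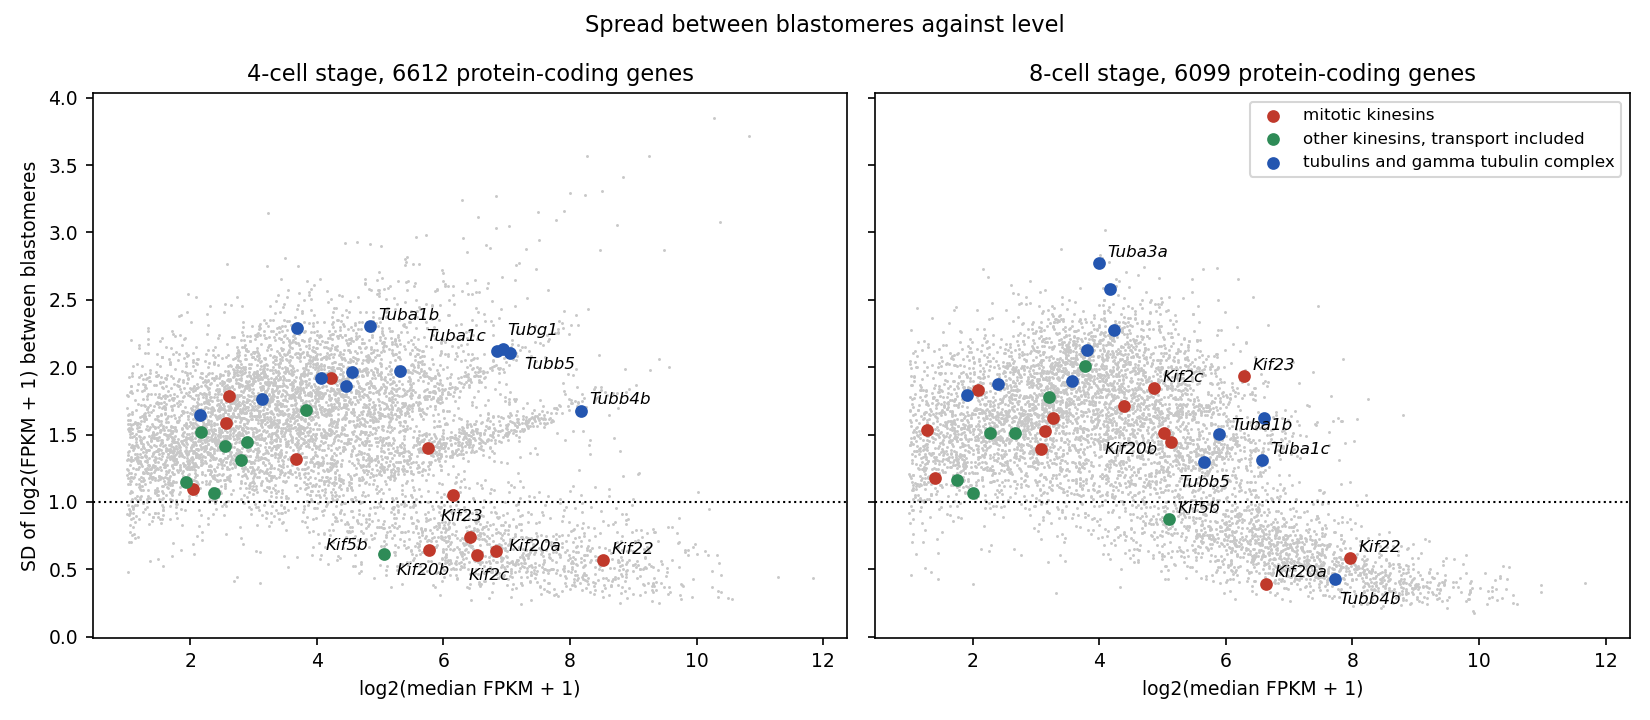
SD of log2(FPKM + 1) between blastomeres against log2(median FPKM + 1), for 6612 protein-coding genes in 4-cell and 6099 in 8-cell blastomeres (grey), with the mitotic kinesins in red, other kinesins in green and tubulins in blue. The dotted line marks an SD of 1. Kif20a and Kif22 lie below the dotted line at both stages, and Tuba3a lies near the upper edge at the 8-cell stage.

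Partner genes of these motors and filaments were taken from lists of their own. Of 18 tubulin folding and modification genes in both tables, 1 was called higher and 5 lower, where 5.22% and 10% of all protein-coding genes in both tables were. The tubulin cofactor Tbcc went from a median of 62.9 to 24.8 FPKM, and Svbp, a partner of the enzymes that remove the terminal tyrosine, from 4.82 to 0. Ttll1 (2.46 to 0) and Ttll4 (5.15 to 1.497), which add glutamate chains to tubulin, and Agtpbp1 (1.18 to 0.00469), which trims them, were the rest of the lower group, and Ttll12 (1.20 to 6.10) was higher. Of 30 spindle microtubule factors, 1 was called higher and 3 lower, shares near the same background. The augmin subunits Haus5 and Haus6 were called in opposite directions, Haus5 from 2.73 to 19.9 and Haus6 from 80.6 to 38.0, and the gamma tubulin complex component Mzt1 (35.4 to 16.2) and the minus end binder Camsap1 (3.13 to 0.9998) were lower. Of 18 cargo adaptor and dynein genes, only the dynactin subunit Dctn2 was called, with 3.37 and 13.1. For all 11, the ranges of the stages overlapped, and 6 of the 11 had a median at or under 1.5 at the 4-cell or the 8-cell stage.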

How the data were processed

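Single blastomeres were lysed and amplified with Smart-seq2, and Nextera XT libraries were sequenced as paired reads of 100 bases. The authors aligned reads with STAR 2.5.1b to mm10, kept uniquely aligned reads, counted them with HTSeq-count on UCSC Refseq genes and deposited FPKM values, for which the gene lengths and the choice of total are not given in the sources used here. Uniquely aligned reads understate genes with near-identical copies, and shared 100-base exon windows were therefore counted. The count covered the members and 10 family pseudogenes, and the rest of the genome was not searched. None of the 50 columns of the 2 gene tables, 5 of them headed NA, matches a single sample, and 50 columns of the repeat tables were not used. Entrez identifiers were matched to GRCm38.p6 (15200 of 15218 and 15320 of 15342). Denominators came from single-fragment values of genes with 1 curated transcript. In each library, 90.8% or more of such values (from 0.5 up to 10 fragments) came within 0.1 of an integer. This step was tested on simulated data, where 24 of 24 and 26 of 26 were recovered.

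Values were compared as log2(FPKM + 1), with a pseudocount of 1, in Python 3.11.15 (numpy 2.4.6, pandas 2.3.3). No test was run, since each stage counts as 1 sample and blastomeres share embryos. Named are members of the mitotic, transport and tubulin lists with a median FPKM above 1 or a difference of at least 1, and partner genes past 1. Members and lists were chosen with earlier results of these data known. Alternatives were a pseudocount of 0.1, means, unlisted genes at 0, no columns headed NA, no blastomeres under 5000 genes, TPM, median-ratio size factors, thresholds of 0.1 and 5, and each blastomere left out. The lineage model was not run.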

Additional observations from a re-analysis of the deposited data

How the results depend on the processing

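Of the 53 members in both tables, 2 were called higher and 8 lower. With means in place of medians the counts were 1 and 5, with Kif4, Tuba1a, Tuba3b and Tubb5 no longer called, and without the blastomeres under 5000 genes Tuba1a, Tuba1b and Kif4 were lost and Kifc3 gained, so that 1 was called higher. With each blastomere left out in turn the counts were 1 to 3 and 7 to 8, Tuba1a being lost without any of 25 blastomeres (0.87 or 0.999 on the log2 scale), Kif4 lost without any of 12 (-0.95) and Kifc3 gained without any of 13 (1.04). All 10 calls were kept under TPM, size factors, unlisted genes at 0 and a pseudocount of 0.1, which also gave Kif9 a difference of -5.18 and added Kif5c, Kif24 and Tubb2a. Without the columns headed NA, Kif4, Tuba1a and Tubb6 were lost and Kif13b and Tuba4a gained. With each blastomere left out, the median over all members of a list ran from -0.66 to -0.50 for the mitotic kinesins and from -0.28 to -0.03 for the tubulins, and stayed at 0 for the transport kinesins. Over expressed members, a set of alternatives chosen after seeing the data, it ran from -0.40 to -0.23 for the tubulins and from -0.18 to 0.04 for the transport kinesins. In the other alternatives the expressed mitotic kinesins had -0.63 to -0.52, the tubulins -0.38 to -0.25 and the transport kinesins -0.14 to 0.06. Members of wide spread numbered 26 in 4-cell and 28 in 8-cell blastomeres, and 10 and 8 with a median above 20, a setting chosen after seeing the data that counts fewer genes. For all other differences between settings the cause was not tested. Of 34 named members 6, none of them called, changed direction in 8 of 238 values: Kif23 without the blastomeres under 5000 genes, under TPM and under size factors, Tuba4a and Tubgcp5 without those blastomeres, Tuba1c and Tubb4b with means, and Kif3a without the columns headed NA. With single blastomeres left out, Tuba4a and Tubgcp2 (-0.0051 to 0.56) changed direction too. No paired analysis was possible because no column names an embryo, and leaving out each embryo was not run for that reason. An FPKM of 1 for Kif22 stands for as few as 4.82 fragments in the shallowest library, so low values there are imprecise.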
